A study of Mus musculus with 3 samples.

Results

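The naive pluripotency genes described here are 10 genes listed by name: the transcription factors Pou5f1, Nanog, Esrrb, Tfcp2l1, Tbx3, Prdm14 and Nr5a2 and the marker genes Zfp42, Dppa3 and Fbxo15. They were taken from the deposited lists by exact gene name. Of the 10 genes, 8 had rows of their own in all 3 samples, among 25350 gene names of which this was true. Tfcp2l1 lay in a locus named jointly with Gm23497 and is reported apart. Fbxo15 was not analysed here.

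Naive pluripotency is the state of the inner cell mass of the blastocyst, which mouse embryonic stem (ES) cells keep in culture with leukemia inhibitory factor (LIF). It is held by a network of transcription factors that bind each other's genes. Pou5f1, which encodes Oct4, is needed at the base of this network, whereas factors such as Nanog, Esrrb, Tfcp2l1, Tbx3 and Nr5a2 stabilise the naive state and can partly stand in for each other. Zfp42 (Rex1) and Dppa3 (Stella) are widely used markers of naive cells and vary from cell to cell within a culture. Pcgf1 is the subunit that defines the PRC1.1 form of Polycomb repressive complex 1, which places ubiquitin on histone H2A.

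The study compared 3 ES cell samples of strain C57BL/6 by poly-A RNA-seq, 1 per condition. They were wild-type (WT) cells, Pcgf1-/- cells made with Cas9 and guides to exons 2 and 3 of Pcgf1, and Pcgf1-/-+Pcgf1 cells, in which FLAG-tagged Pcgf1 was put back into Pcgf1-/- cells by lentivirus and carriers were selected with puromycin. All were grown with serum and LIF on mitomycin-C-treated embryonic fibroblasts. The Pcgf1-/- cells were raised from single colonies, and how many colonies the sample held is not given in the sources used here. With 1 sample per condition no difference below has a replicate check, no test was run, and the spread between cultures cannot be told apart from an effect of genotype. Fewer cells of a kind and less RNA per cell also cannot be told apart in bulk samples.

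Values are FPKM, fragment numbers scaled to transcript length and library size, so levels of different genes are compared per length. Pcgf1 itself was at 13.95 FPKM in WT, against 5.88 in the knockout and 7.86 after re-expression. This value is the FPKM of whole transcripts, summed over their listed first or last exons. It does not show whether those transcripts hold the targeted exons, and so does not check the deletion. ES cell markers outside the set described here were high in all 3 samples: Sall4, Lin28a, Utf1, Tdgf1 and Dppa4 lay between 45.2 and 678 FPKM. Sox2 and Dppa5a did not have rows of their own in every sample. The depth of the libraries is unknown, but low values fell in steps. With FPKM multiplied by transcript length in kilobases, over genes with a single transcript of more than 2000 bases, 0 genes lay at or below 0.03 in any sample. Between 0.04 and 0.06 there were 59 genes in WT, 56 in the knockout and 78 in the rescued cells, between 0.07 and 0.09 there were 7, 14 and 8, and between 0.09 and 0.11 there were 24, 34 and 39. The median of the lowest step, taken from 0.03 to 0.075 by limits set after seeing the values, was 0.0517, 0.0488 and 0.0498 in the same order.

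Some of these genes are followed below through the start of their transcripts, so 3 promoters are shown, each as the 250 bases before a start site in RefSeq on GRCm38.p6 (the mm10 build). Of the 10 genes, 6 matched the promoter table. No promoter sequence is shown for Tbx3, Prdm14, Dppa3 and Fbxo15. Capitals mark letters that can be bound by factors of the network or by the TATA-binding protein. The strings searched, on both strands, were ATGCAAA for Oct factors, CATTGT for Sox factors, AAGGTCA for Esrrb and Nr5a2, CCACACCC for Klf factors and TATAAA. The promoter of Nanog lies on the plus strand (chr6:122707315-122707564), and those of Nr5a2 lie on the minus strand, before the start of the shorter annotated transcript (chr1:136953631-136953880) and before the upstream annotated start (chr1:136960449-136960698).
Nanog, before 122707565: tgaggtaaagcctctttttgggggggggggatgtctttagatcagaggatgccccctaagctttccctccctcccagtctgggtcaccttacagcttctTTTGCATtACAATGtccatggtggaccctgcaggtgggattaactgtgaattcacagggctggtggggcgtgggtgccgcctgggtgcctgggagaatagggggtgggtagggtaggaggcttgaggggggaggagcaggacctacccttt
Nr5a2, before 136953630: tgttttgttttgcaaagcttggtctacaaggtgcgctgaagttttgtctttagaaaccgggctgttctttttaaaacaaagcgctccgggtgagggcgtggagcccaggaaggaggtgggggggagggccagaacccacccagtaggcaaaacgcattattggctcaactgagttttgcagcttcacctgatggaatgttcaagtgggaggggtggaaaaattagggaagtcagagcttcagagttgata
Nr5a2, before 136960448: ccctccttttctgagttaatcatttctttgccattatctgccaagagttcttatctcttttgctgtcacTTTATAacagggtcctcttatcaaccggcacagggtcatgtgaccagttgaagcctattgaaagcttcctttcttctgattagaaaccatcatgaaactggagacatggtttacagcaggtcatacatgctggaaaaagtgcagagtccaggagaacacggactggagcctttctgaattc

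In the Nanog promoter an Oct string and a Sox string stand side by side, separated by a single t. The Oct string occurs in 4.12% of the 32851 promoters in the table and the Sox string in 10.7%. Of the 10 promoters of the 6 matched genes, 3 hold the Oct string, namely the overlapping windows of both Nanog starts and the promoter of Zfp42. The Sox string was found in 3, both Nanog windows and an internal start of Pou5f1. The Esrrb and Nr5a2 string was in 0 of the 10, against 4.08% of all promoters. The Klf string was in 1, Zfp42, against 3.2% of all promoters. TATAAA was in 2, Tfcp2l1 and the upstream start of Nr5a2, against 12.4% of all promoters. These are matches of letters in a fixed window and no measure of binding.

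The members covered a wide range of levels. In WT the order from high to low was Pou5f1, Esrrb, Nanog, Dppa3, Zfp42, Tfcp2l1, Nr5a2, Prdm14 and Tbx3, from 669.5 FPKM down to 0.233 FPKM. Pou5f1 ranked 77 among the 25350 genes in WT and was above 99.4% of the genes with a value above 0. Tbx3 was above 16.3% of them. The order of neighbours changed between samples. Zfp42 and Dppa3 stood at 35.5 and 38.3 FPKM in WT, but at 51.7 and 17.5 in Pcgf1-/-. Nanog was below Esrrb in WT and in Pcgf1-/- and above it in Pcgf1-/-+Pcgf1. Without replicates it cannot be said which neighbours differ beyond their spread.

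**Figure D1:**
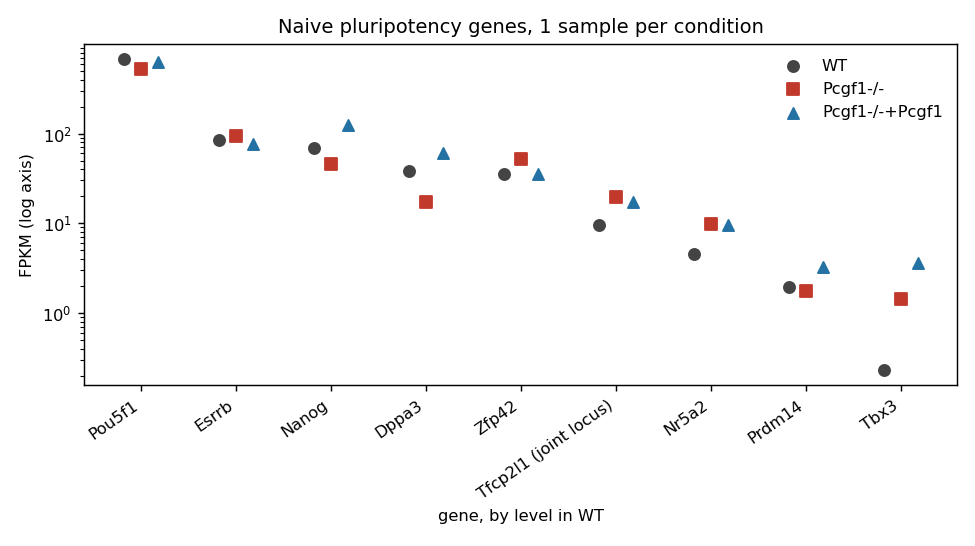
FPKM (log axis) of the 8 naive pluripotency genes with rows of their own and of the joint Tfcp2l1 locus in WT (circles), Pcgf1-/- (squares) and Pcgf1-/-+Pcgf1 (triangles), 1 sample each, ordered by the level in WT. Pou5f1 and Esrrb had close values in all 3 samples, whereas Tbx3 went from 0.233 in WT to 3.61 FPKM in Pcgf1-/-+Pcgf1.

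The first comparison, Pcgf1-/- against WT, asks what loss of Pcgf1 does to genes of the undifferentiated state. The members did not move together: 4 of the 8 were higher and 4 were lower in Pcgf1-/-, and their median log2 ratio was 0.017. For comparison, the median over the 9438 genes with at least 1 FPKM in either sample was -0.091. Tbx3 and Nr5a2 were more than 2-fold higher and Dppa3 was more than 2-fold lower, with ratios taken on FPKM plus 0.1. Over all 25350 genes, 2.16% were past 2-fold in the higher direction and 4.98% in the lower direction. Among genes with at least 1 FPKM these shares were 2.98% and 6.11%. A ratio on this scale understates the difference of low genes.

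Pou5f1 (ENSMUSG00000024406, plus strand of chromosome 17, 35506018 to 35510772), the POU factor Oct4, measured 669.5 FPKM in WT, 518 without Pcgf1 and 626 after re-expression. Loss of Pcgf1 thus went with a log2 ratio to WT of -0.37. All of its signal came from the annotated first exon of 466 bases at 35506018, and 5 other annotated starts were at 0. It was the most abundant member in every sample.

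Nanog (ENSMUSG00000012396, plus strand of chromosome 6, 122707489 to 122714633) encodes a homeodomain factor whose level varies between naive cells. It measured 68.2 FPKM in WT, 46.3 in the knockout sample and 123 after re-expression. Relative to WT, the log2 difference was -0.56 in Pcgf1-/- and 0.85 in Pcgf1-/-+Pcgf1, and both stayed within 2-fold. Between the knockout and the re-expressing cells the log2 ratio was 1.41, past 2-fold. In WT and Pcgf1-/-+Pcgf1 the whole signal came from an annotated first exon of 366 bases, which starts 3 bases after the start site whose promoter is printed above. In Pcgf1-/-, 5.08 FPKM (11.0% of the gene) were assigned to another annotated first exon, of 44 bases, which ends 325 bases earlier and was at 0 in the other samples.

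Esrrb (ENSMUSG00000021255, plus strand of chromosome 12, 86361117 to 86521628) encodes an orphan nuclear receptor. Its levels of 85.3, 94.8 and 77.2 FPKM in WT, Pcgf1-/- and Pcgf1-/-+Pcgf1 were the closest among the members, with log2 ratios between -0.30 and 0.15 over the 3 comparisons. In WT, 28.7 FPKM (33.6%) were assigned to a first exon that ends 4 bases further downstream than the annotated exon with the same start. This longer exon was not listed for the other samples. Its end is that of another annotated first exon, which starts at 86421883 and was listed at 0 in Pcgf1-/- and Pcgf1-/-+Pcgf1. In every sample the start was that of the shorter annotated transcripts, at 86421644, and none of the signal came from the upstream start at 86361117.

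Nr5a2 (ENSMUSG00000026398, minus strand of chromosome 1, 136842571 to 136960448) encodes a nuclear receptor that binds DNA as a monomer and can drive Pou5f1. Its WT level of 4.50 FPKM compared with 9.84 in Pcgf1-/- and 9.45 after re-expression. Both samples derived from knockout cells were thus more than 2-fold higher than WT, with log2 ratios of 1.11 and 1.05. The log2 ratio between them was -0.06. The last exon of Nr5a2 was listed with 3140 bases in WT and 1435 bases in the other samples. FPKM is scaled to transcript length, so the ratios to WT compare transcripts assembled with different ends. In WT the first-exon rows summed to 3.85 FPKM, below the 4.50 of the last exon.

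The listed starts of Nr5a2 also differed. In WT, 3.23 FPKM came from the annotated first exon of the shorter transcript, at 136953630, and 0.612 from an exon that starts 868 bases downstream and is not annotated as a first exon. In Pcgf1-/- and Pcgf1-/-+Pcgf1 the same exon was listed with its start 30 and 69 bases further upstream, at 6.73 and 9.45 FPKM. In Pcgf1-/-, a further 3.11 FPKM (31.6% of first-exon signal) came from the upstream annotated first exon, which starts 6818 bases earlier, at 136960448. This exon was at 0 in WT and in Pcgf1-/-+Pcgf1. Exon ends were assembled in each sample separately, so small offsets compare assemblies rather than a common annotation. The promoters of both annotated starts are printed above.

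Tbx3 (ENSMUSG00000018604, plus strand of chromosome 5, 119670669 to 119684724), a T-box factor that acts downstream of LIF signalling in ES cells, was the lowest member in WT. From 0.233 FPKM in WT it went to 1.43 in Pcgf1-/- and 3.61 after re-expression. On FPKM plus 0.1, Pcgf1-/- was 4.59-fold above WT and Pcgf1-/-+Pcgf1 was 2.43-fold above Pcgf1-/-, so the gene was highest in the cells that express Pcgf1 again. If the lowest step of values described above is 1 fragment, the gene rested on about 22 fragments in WT, 146 without Pcgf1 and 361 after re-expression, over its longest coding transcript of 4.98 kb. Among the 2413 genes between 0.1 and 1 FPKM in WT, 6.17% were past 2-fold higher in Pcgf1-/- and 28.4% were past 2-fold lower. Of the same genes, 27.0% were past 2-fold higher in Pcgf1-/-+Pcgf1 than in Pcgf1-/-, and 14.0% than in WT. The annotated start at 119670669 carried 0.233, 1.17 and 2.22 FPKM in the 3 samples in that order. Pcgf1-/-+Pcgf1 had a further 1.39 FPKM from an annotated start 193 bases downstream, and Pcgf1-/- had 0.257 FPKM from an exon 869 bases upstream that is not annotated.

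Tbx3 has an alternative exon of 60 bases (chromosome 5 of mm10, 119675243 to 119675302), exon 3 of 8 of the annotated transcript that holds it, which is coding over its whole length and keeps the reading frame. It lies in the part of the gene that encodes the DNA-binding T-box. The exon is shown in capitals with 20 bases of the exon on either side, and below it the junction formed in transcripts that lack it.
Tbx3 with the exon: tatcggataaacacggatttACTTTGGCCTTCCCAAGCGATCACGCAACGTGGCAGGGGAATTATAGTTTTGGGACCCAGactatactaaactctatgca
Tbx3 without the exon: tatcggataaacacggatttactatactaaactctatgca

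In WT the whole Tbx3 signal of 0.233 FPKM was assigned to transcripts that include this exon. In Pcgf1-/-, 0.4625 FPKM included it and 0.966 FPKM skipped it, an included share of 32.4%. In Pcgf1-/-+Pcgf1, 0.731 FPKM included it and 2.88 FPKM skipped it, a share of 20.2%. The form with the exon was thus higher in both samples derived from knockout cells, and the form without it was listed at 0 in WT. With an estimated 22 fragments over the gene in WT, a skipped share of the size seen in the other samples may not have been detectable at this depth.

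**Figure D2:**
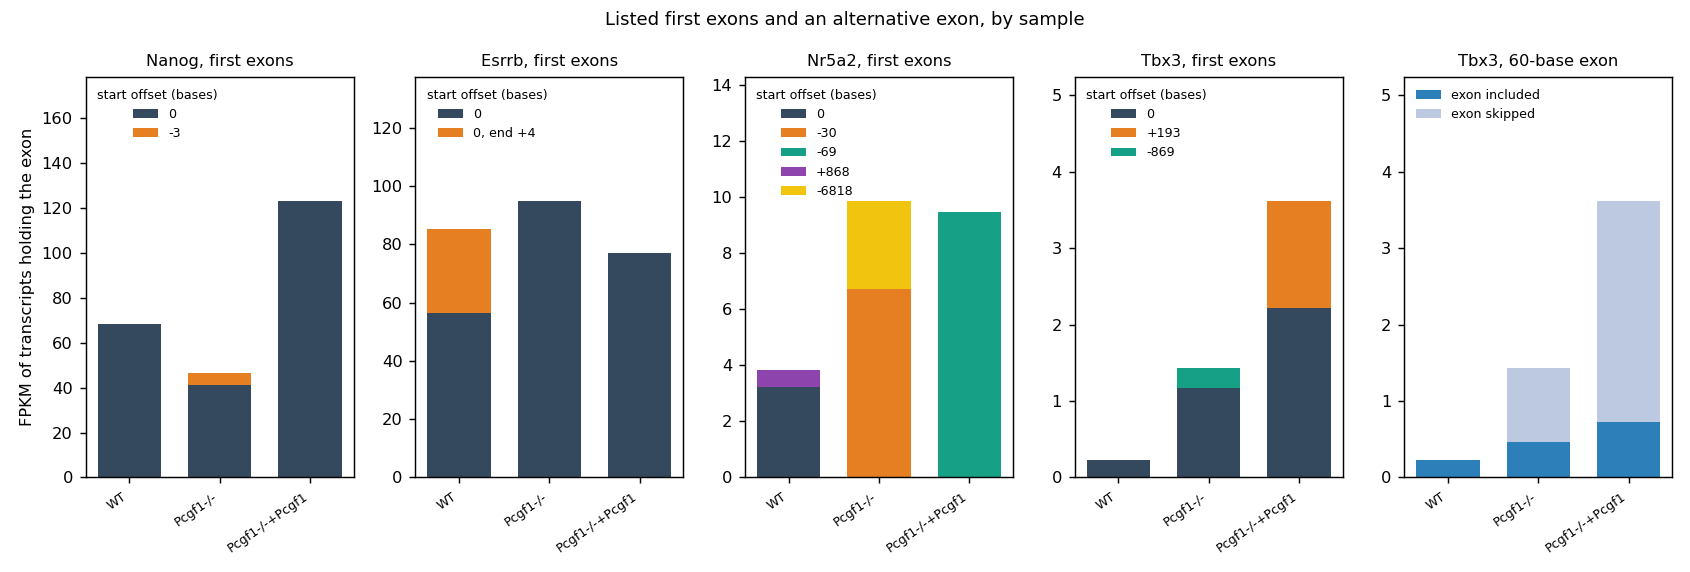
FPKM of transcripts by listed first exon for Nanog, Esrrb, Nr5a2 and Tbx3, and by inclusion of the 60-base exon of Tbx3, in WT, Pcgf1-/- and Pcgf1-/-+Pcgf1 (1 sample each, bars stacked from 0). Colours give the distance in bases of the start of each exon from the most used start in WT, and the upstream start of Nr5a2, 6818 bases away, appears in Pcgf1-/- alone with 3.11 FPKM.

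Prdm14 (ENSMUSG00000042414, minus strand of chromosome 1, 13113457 to 13127163) encodes a PR-domain protein that represses Fgf signalling and DNA methyltransferases. The 3 levels were 1.94 FPKM in WT, 1.78 in the knockout and 3.22 after re-expression. The log2 ratio of Pcgf1-/-+Pcgf1 to Pcgf1-/- was 0.82, and it was 1.12 when last exons alone were summed. Its values rest on low numbers, about 96 fragments in WT by the same estimate. The annotated first exon at 13127163 was listed in WT and Pcgf1-/-+Pcgf1 with 1.28 and 2.53 FPKM, and in Pcgf1-/- the listed exon started 348 bases further upstream with 1.78 FPKM.

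The joint locus of Tfcp2l1 (ENSMUSG00000026380, plus strand of chromosome 1, 118627945 to 118685168), a grainyhead-like factor downstream of LIF and Stat3, gave 9.65 FPKM in WT, 19.8 without Pcgf1 and 17.3 after re-expression. The log2 ratio was 1.03 for Pcgf1-/- against WT, just past 2-fold, and 0.84 for Pcgf1-/-+Pcgf1 against WT. In WT the first exon carried 6.78 FPKM and the last exon 9.65, and with first exons alone the log2 ratio of Pcgf1-/-+Pcgf1 to WT was 1.34. The joint name does not say which share belongs to Gm23497. In level the locus resembled Nr5a2 in that both samples derived from knockout cells were above WT.

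Zfp42 (ENSMUSG00000051176, minus strand of chromosome 8, 43295063 to 43306980), which encodes the zinc finger protein Rex1, stood at 35.5 FPKM in WT, 51.7 without Pcgf1 and 35.7 after re-expression. The value after re-expression was close to that in WT (log2 ratio 0.01), and the knockout differed from WT by 0.54 on the log2 scale. In the rescued cells its first exon was listed 93 bases longer at the start.

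Dppa3 (ENSMUSG00000046323, plus strand of chromosome 6, 122626410 to 122630272), which encodes the maternal factor Stella that protects DNA methylation in the zygote, stood at 38.3 FPKM in WT, 17.5 without Pcgf1 and 60.1 after re-expression. On FPKM plus 0.1 the knockout value was 45.8% of that in WT (log2 ratio -1.13). After re-expression the gene was 3.43-fold above the knockout (log2 ratio 1.78), with all signal from 1 annotated first exon in every sample. Nanog and Dppa3 have processed pseudogenes in the mouse genome, and how reads shared with these copies were counted was not tested. Among the 4159 genes between 10 and 100 FPKM in WT, 2.24% were past 2-fold lower in Pcgf1-/- and 1.76% were past 2-fold higher in Pcgf1-/-+Pcgf1 than in Pcgf1-/-.

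The second comparison, Pcgf1-/-+Pcgf1 against Pcgf1-/-, asks what changes when Pcgf1 is expressed again. Of the 8 members, 5 were higher and 3 lower, with a median log2 ratio of 0.55, and 3 were more than 2-fold higher: Nanog, Tbx3 and Dppa3. No member was more than 2-fold lower. Over all genes 6.35% were past 2-fold higher and 2.22% lower, and among genes with at least 1 FPKM 7.23% and 3.6%. The third comparison sets Pcgf1-/-+Pcgf1 against WT. Here 6 of the 8 members were higher and 2 were lower, with a median log2 ratio of 0.68, and Tbx3 and Nr5a2 were more than 2-fold higher. The background was 3.99% higher and 2.36% lower over all genes, and 3.84% and 2.65% among genes with at least 1 FPKM, whose median log2 ratio was -0.11. The 3 comparisons share samples in pairs, so their values are not independent of each other.

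**Figure D3:**
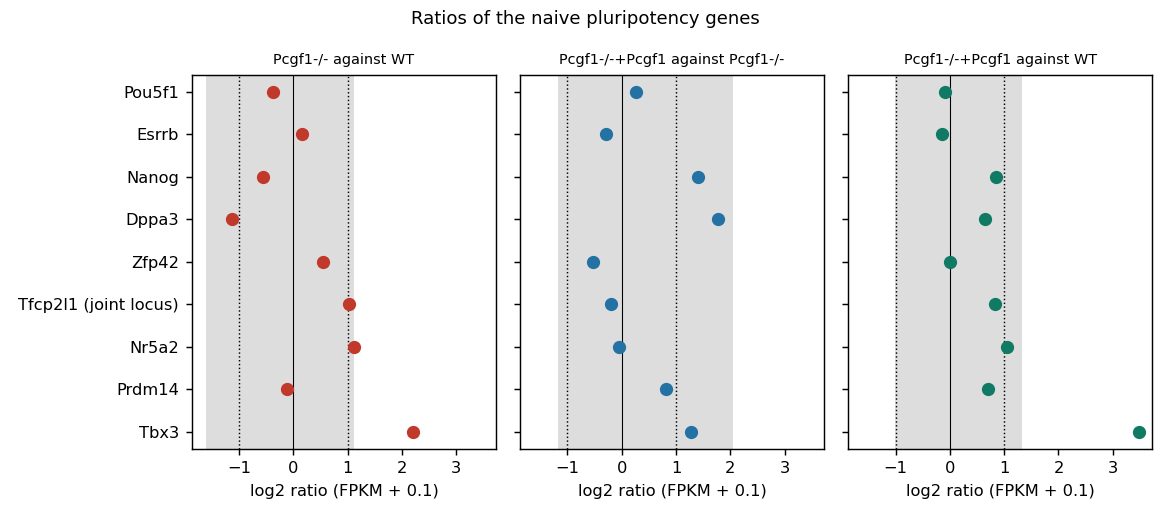
Log2 ratios (FPKM plus 0.1) of the members in the 3 comparisons, 1 sample each. Dotted lines mark 2-fold and grey bands hold the central 95% of all genes with at least 1 FPKM in either sample, and Tbx3 lies outside the band in both comparisons with WT, at 3.48 for Pcgf1-/-+Pcgf1.

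Placed side by side, the members showed several patterns over the 3 samples. Nanog, Dppa3 and Prdm14 were lowest in Pcgf1-/- and highest in Pcgf1-/-+Pcgf1, though Prdm14 differed little between WT and Pcgf1-/- and was higher in Pcgf1-/- with last exons alone (log2 ratio 0.15). Pou5f1 was also lowest in Pcgf1-/-, and highest in WT. Zfp42 and Esrrb were highest in Pcgf1-/-. Nr5a2 and the Tfcp2l1 locus were higher in both samples derived from knockout cells than in WT. Tbx3 was highest in Pcgf1-/-+Pcgf1 and lowest in WT, and in Pcgf1-/-+Pcgf1 it was 11.1-fold above WT.

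Nanog and Dppa3 are also neighbours on chromosome 6, with 77.2 kb between them. Within 200 kb on either side of the pair, 10 genes had rows of their own and 7 had a value above 0, Nanog and Dppa3 included. This window was chosen after the values of both genes had been seen. Apobec1, an RNA-editing deaminase, measured 2.65 FPKM in WT and was lower in the other samples, at 1.02 in the knockout and 1.26 after re-expression. Mfap5, which encodes a microfibril protein, measured 3.28, 4.38 and 9.38 FPKM in the same order. Rimklb and Necap1 stayed between 16.8 and 25.8 FPKM in all samples. The genes of this window therefore did not share 1 pattern. Gdf3, a pluripotency gene in the same cluster, was listed at 0 in all samples.

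Other genes of the pluripotency network served as a frame for the members. Of 32 listed, 25 had rows of their own in all samples and 2 of these, Gdf3 and Gbx2, were listed at 0 throughout. In Pcgf1-/- against WT, 2.16% of all genes were past 2-fold higher and 4.98% lower. Of the remaining 23 network genes, 0 were past 2-fold higher and 2 were past 2-fold lower, with a median log2 ratio of -0.14. The lower ones were Klf4, a Krüppel-like factor used in reprogramming, with 2.62 FPKM in WT and 1.19 in Pcgf1-/-, and Tcl1, a cofactor of the kinase Akt, with 9.11 and 4.50. The most abundant, Trim28, Utf1, Klf2 and Tdgf1, had log2 ratios between -0.23 and 0.21. In Pcgf1-/-+Pcgf1 against Pcgf1-/-, where 6.35% of all genes were past 2-fold higher and 2.22% lower, 5 of the 23 were higher and 0 lower. These were Tcl1 (log2 ratio 2.78), Klf4 (2.66), Tet2 (1.96), Manba (1.04) and Jam2 (1.01), named because they make up that count.

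Markers of other states and cell types are given beside these results, and their part in them was not tested. In Pcgf1-/- against WT, 2.16% of all genes were past 2-fold higher and 4.98% lower. Of genes with at least 1 FPKM in either sample, 2.98% were higher and 6.11% lower. Of genes between 0.1 and 1 FPKM in WT, 6.17% were higher and 28.4% lower. Among 14 formative and primed epiblast genes above 0, 2 were past 2-fold lower in Pcgf1-/-, Zic2 (log2 ratio -3.97) and Otx2 (-2.35), and 2 were higher, Etv4 and Fgf15, with a median log2 ratio of -0.04. Of 13 primitive endoderm genes 4 were past 2-fold higher and 0 lower (median 0.23), namely the collagens Col4a1 and Col4a2 and, below 1 FPKM, the factors Gata6 and Sox7. Of 9 trophoblast genes 3 were higher and 0 lower (median -0.05), namely Elf5, Tfap2c and Tead4. The 2-cell-like genes were listed at 0 in WT and Pcgf1-/-, and 7 of 11 were above 0 in Pcgf1-/-+Pcgf1 with a summed level of 1.25 FPKM. Of 17 fibroblast genes above 0, which could mark the feeder cells, 0 were past 2-fold higher and 5 were lower, Col1a1, Col1a2, Thy1, Mmp2 and Pdgfrb (median -0.54). The summed level of the whole fibroblast list was 193 FPKM in WT, 133 without Pcgf1 and 142 after re-expression. Most of it came from Fn1, at 110, 75.7 and 74.9 FPKM, and Vim, at 39.9, 31.9 and 29.3 in the same order. Neither was past 2-fold in Pcgf1-/- against WT. The fibroblast markers Postn and Fap were at 0 in all samples, and Lum and Prrx1 were also at 0 in Pcgf1-/-. None of 8 housekeeping genes above 0 was past 2-fold in either direction (median -0.03). The lists also differed between Pcgf1-/-+Pcgf1 and Pcgf1-/-, where 3 members were more than 2-fold higher. In that comparison 6.35% of all genes were past 2-fold higher and 2.22% lower. Of genes between 0.1 and 1 FPKM in WT, 27.0% were higher and 6.63% lower. There 5 fibroblast genes were past 2-fold higher and 1 lower, 1 primitive endoderm gene was higher and 4 were lower, and 1 trophoblast gene was higher and 3 were lower. Of the formative and primed genes 2 were higher and 2 lower, of the 2-cell-like genes 4 were higher and 0 lower, and of the housekeeping genes 0 were past 2-fold. The 2-cell-like genes, at 0 in WT, lie outside the band from 0.1 to 1 FPKM. Their ratios depend on the 0.1 FPKM added to each value.

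**Figure D4:**
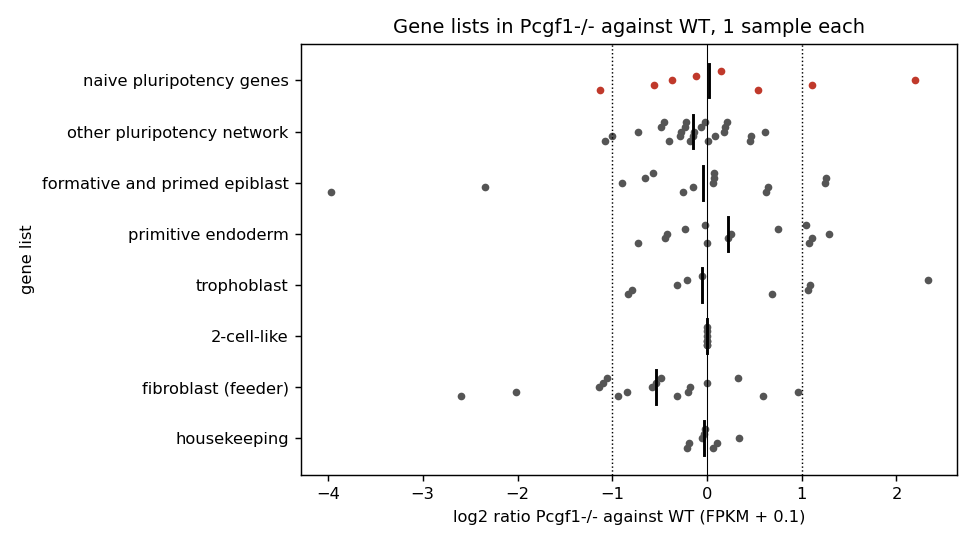
Log2 ratio of Pcgf1-/- to WT (FPKM plus 0.1, 1 sample each) for the 8 members (top row) and for the genes above 0 of 7 other lists, with the median of each list as a vertical bar and dotted lines at 2-fold. The members spread from Dppa3 at -1.13 to Tbx3, which is 4.59-fold higher, around a median of 0.017. This range is wider than that of the housekeeping genes and narrower than those of the formative and primed epiblast and fibroblast lists.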

How the data were processed

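RNA-seq was analysed in 3 samples, 1 per condition. The libraries were poly-A selected, read as paired ends and aligned to mm10 with TopHat2 2.0.12, and the submitters' processing notes also name Cufflinks 2.2.1 and HTSeq 0.6.0. The authors deposited 1 file per sample that lists first, last, skipped and other exons, each with the FPKM of the transcripts that hold it. Which program wrote these files is not given in the sources used here. The files hold no counts, so no count test was run.

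The value of a gene was the larger of the summed FPKM of its first-exon rows and of its last-exon rows. Loci with several names, unnamed loci and names turned into dates were left out, other than the locus of Tfcp2l1. Ratios were taken on FPKM plus 0.1 and compared with a limit of 2-fold, with no p-value. Members, lists and limits were chosen with earlier results of these data known. Genes named by rule were the members and the 4 genes of the pluripotency list that were highest in WT. Of each list, up to 4 genes past 2-fold in Pcgf1-/- against WT with at least 1 FPKM were added. Others were named outside this rule, such as Gata6, Sox7, Col1a2 and Pdgfrb, below 1 FPKM, which complete a printed count. Exons and genes were matched to GENCODE vM21. The calling steps were tested on simulated data without noise. This checks the code, not the reliability of calls from 1 sample per condition. In all, 6 alternative settings were computed. Python 3.11.15, numpy 2.4.6, pandas 2.3.3 and matplotlib 3.10.9 were used.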

Additional observations from a re-analysis of the deposited data

Results flagged for a closer look

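Internal events do not enter the gene values, and 4 such values of the members were above 0 in Pcgf1-/- or Pcgf1-/-+Pcgf1 while they were at 0 or not listed in WT. Skipping of the 60-base exon of Tbx3 carried 0.966 FPKM in Pcgf1-/- and 2.879 FPKM in Pcgf1-/-+Pcgf1. In Pcgf1-/-, an exon of 63 bases of Nr5a2 (chromosome 1, 136952102 to 136952164) was listed as included with 3.11 FPKM, the same value as the upstream first exon. An alternative exon end of Nanog in Pcgf1-/- had 5.08 FPKM, the value of its first exon of 44 bases. Each comes from 1 sample and its cause was not tested.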

How the results depend on the processing

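Of 162 recomputed member log2 ratios (Tfcp2l1 included) over 6 alternatives, 152 kept their sign and side of 2-fold, 8 changed side and 2 changed sign within 2-fold of no difference: Prdm14 in Pcgf1-/- against WT, at 0.15 with last exons alone, and Pou5f1 in Pcgf1-/-+Pcgf1 against WT, at 0.03 with median-of-ratios scaling. With a pseudocount of 1 FPKM, 1 member was past 2-fold in Pcgf1-/- against WT and 1 in Pcgf1-/-+Pcgf1 against WT, since Tbx3 (0.98) and Nr5a2 (0.98) fell short in the first and Nr5a2 (0.93) in the second, and Tbx3 (0.92) also fell short in Pcgf1-/-+Pcgf1 against Pcgf1-/-. That setting also put Tfcp2l1 at 0.96 and left 0 other pluripotency genes, 1 primitive endoderm, 1 trophoblast and 2 fibroblast genes past 2-fold, and gave a member median of 0.44 for Pcgf1-/-+Pcgf1 against Pcgf1-/-. With 0.01 FPKM, 8 fibroblast genes were past 2-fold. With first exons alone the member median was 0.38 for Pcgf1-/-+Pcgf1 against Pcgf1-/- and 0.51 against WT. With last exons alone it was 0.69 for Pcgf1-/-+Pcgf1 against Pcgf1-/- and 0.15 for Pcgf1-/- against WT, Prdm14 passed 2-fold in Pcgf1-/-+Pcgf1 against both (1.12 and 1.27), and 4 other pluripotency genes and 1 trophoblast gene were past 2-fold. Median-of-ratios scaling, with factors of 1.04 for WT, 0.998 for Pcgf1-/- and 0.959 for the rescued cells, gave a member median of 0.80 for Pcgf1-/-+Pcgf1 against WT and left 1 other pluripotency gene past 2-fold. With genes of at least 1 FPKM kept, 2 primitive endoderm and 3 fibroblast genes were past 2-fold. That filter leaves every member ratio as it was. For Pou5f1, Esrrb, Zfp42 and Dppa3 the first-exon and last-exon sums were equal, so those 2 settings could not change their ratios. Part of the 152 ratios that kept sign and side was therefore fixed in advance. Causes beyond the construction of each setting were not tested. No paired analysis was possible because each condition had 1 sample. Depth limits Tbx3 and Prdm14 most.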

Other observations

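The genes whose ratios lay closest to those of Tbx3, the member with the largest difference in Pcgf1-/-, were Rhox5, Xlr3b and Mmp28, by Euclidean distance over the log2 ratios of Pcgf1-/- to WT and of Pcgf1-/-+Pcgf1 to Pcgf1-/- among 9249 genes with a mean of at least 1 FPKM. Rhox5, an X-linked homeobox gene, measured 24.4 FPKM in WT, 129 in the knockout and 414 after re-expression (distance 0.446). Xlr3b measured 0.637, 2.42 and 6.86 FPKM (distance 0.464), and Mmp28, a matrix metalloproteinase, 0.508, 2.40 and 3.58 FPKM (distance 0.737). The 3 genes were picked by these same ratios. Their place above WT in both samples derived from knockout cells, highest in Pcgf1-/-+Pcgf1, follows from that choice. The likeness rests on 3 samples and is a description.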
